A study of Homo sapiens with 6 samples.

Results

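The genes described here encode 10 RNA-binding proteins with roles in nervous tissue: ELAVL2, ELAVL3, ELAVL4, NOVA1, NOVA2, CELF3, CELF4, RBFOX2, SRRM3 and SRRM4. They were taken by gene symbol, from a set proposed with earlier results of these data known, and all 10 were found among the 62696 genes of the count files. RNA-Seq had been performed on DMS53, an established small cell lung cancer (SCLC) line with neuroendocrine (NE) features, to learn how ONECUT2 (OC2), a homeodomain transcription factor, changes gene expression in NE cells. Control cells (3 libraries) carried the empty lentiviral vector and OC2-OE cells (3 libraries) a vector for constitutive OC2 expression. The vector backbone of both also codes for a green fluorescent protein, to which OC2 is fused as a tag in OC2-OE cells. Both groups were transduced and selected with puromycin, so the comparison is between selected populations of a single line. The 3 libraries of each group are described as independent experiments. Whether each came from its own transduction is not stated, so the adjusted p values measure change against the spread between libraries. Libraries were made from poly(A) RNA with a stranded kit, and 16533284 to 19099337 read pairs per library were assigned to genes.

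In nervous tissue, proteins of these families decide which exons enter an mRNA and how long the mRNA lasts. The neuronal ELAVL (Hu) proteins bind AU-rich stretches of mRNA and are the antigens of the anti-Hu antibodies found in some patients with SCLC. NOVA proteins, the antigens of anti-Ri antibodies, bind clusters of YCAY, CELF proteins bind GU-rich RNA and RBFOX proteins bind UGCAUG, while SRRM3 and SRRM4 promote inclusion of the very short neural microexons. The deposited counts sum the reads over all exons of a gene, so they give the mRNA level of each regulator and not the use of any exon.

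OC2-OE and control cells differed in the level of most of these genes, and the genes did not move in a single direction. With edgeR's quasi-likelihood test and a Benjamini-Hochberg adjusted p under 0.001, 6 of the 9 genes with enough reads to test fell (ELAVL2, ELAVL3, ELAVL4, NOVA1, CELF3 and SRRM4) and 3 rose (CELF4, RBFOX2 and SRRM3). NOVA2 was too low to test. The levels in OC2-OE cells ran from 29.3% of control for CELF3 to 1.59-fold of control for CELF4. Changes were common over the whole transcriptome, since 56.5% of the 17307 tested genes passed the same threshold, 27.8% as higher and 28.7% as lower. At least 50 read pairs were counted for each of the 9 tested genes in every library, so none of them passed the filter on low counts through a single group. The ELAVL2 call did not hold in most of the alternative analyses and the SRRM4 call did not hold in some, as given beside each gene.

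**Figure D1:**
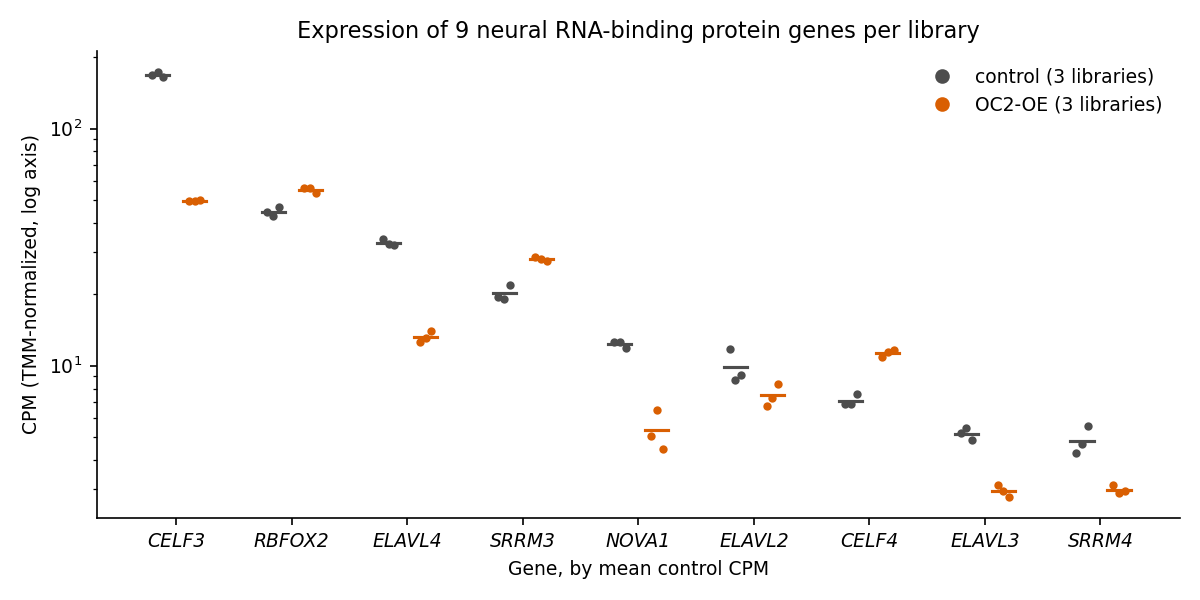
CPM (counts scaled to library size, TMM-normalized, log axis) of the 9 tested genes in each library, with a point for each of the 3 control and 3 OC2-OE libraries. The control and OC2-OE points are separate for every gene, OC2-OE lower for 6 genes and higher for CELF4, RBFOX2 and SRRM3.

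The region just upstream of a gene's start is shown for 4 of these genes, because the 250 bases there overlap no annotated exon on the gene's strand and hold the letters of a motif of the ONECUT or NE basic helix-loop-helix factors. The sequences are from RefSeq (GRCh38.p14), are written 5′ to 3′ on the gene's strand and have the matched letters in capitals. They lie at chr1:151716804-151717053 (minus strand) for CELF3, chr7:76201646-76201895 (plus strand) for SRRM3, chr12:118981291-118981540 (plus strand) for SRRM4 and chr9:23822556-23822805 (minus strand) for ELAVL2, the last being 1 of 6 start sites of that gene in the table. Of the 7 windows of ELAVL4, 2 also held CAGCTG outside exons and are not printed.
CELF3: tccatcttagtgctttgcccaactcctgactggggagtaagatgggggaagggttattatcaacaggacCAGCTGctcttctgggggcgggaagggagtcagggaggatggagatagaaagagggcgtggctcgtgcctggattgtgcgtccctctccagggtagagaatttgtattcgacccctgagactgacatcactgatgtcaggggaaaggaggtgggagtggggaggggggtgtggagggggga
SRRM3: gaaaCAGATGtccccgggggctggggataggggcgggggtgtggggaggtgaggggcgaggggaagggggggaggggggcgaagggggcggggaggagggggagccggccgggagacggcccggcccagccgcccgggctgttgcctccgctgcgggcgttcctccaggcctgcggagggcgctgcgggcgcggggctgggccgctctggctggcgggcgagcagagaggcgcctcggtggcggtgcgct
SRRM4: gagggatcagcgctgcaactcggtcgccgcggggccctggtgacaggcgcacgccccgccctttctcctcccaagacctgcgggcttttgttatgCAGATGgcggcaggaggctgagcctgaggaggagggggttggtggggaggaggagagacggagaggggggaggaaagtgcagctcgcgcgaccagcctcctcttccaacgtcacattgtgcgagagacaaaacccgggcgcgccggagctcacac
ELAVL2: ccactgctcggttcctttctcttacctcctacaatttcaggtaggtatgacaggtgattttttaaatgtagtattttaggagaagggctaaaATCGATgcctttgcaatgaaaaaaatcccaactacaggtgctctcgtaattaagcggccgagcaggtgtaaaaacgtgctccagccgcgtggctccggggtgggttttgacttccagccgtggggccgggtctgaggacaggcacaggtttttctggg
CELF3, which fell, held CAGCTG, an E-box of the kind bound by NE basic helix-loop-helix factors. SRRM3, which rose, and SRRM4, which fell, both held CAGATG, a further E-box. The ELAVL2 window held ATCGAT, the core of the ONECUT site.

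Such short words occur often. Both strands were searched, and CAGCTG was found in 14% and CAGATG in 12.2% of all 35116 windows of this length in the table, against 4 and 3 of the 21 windows of these genes. ATCGAT was found in 0.655% of all windows and in 1 of the 21, while the related ATCAAT was found in 5.58% of all and in 0 of the 21. The RE1 element, searched as a single fixed word and bound by the repressor REST, was in 0.0142% of all windows and in 0 of the 21. A match is only a match of letters, with no binding measured here, and ELAVL3 and RBFOX2 had no window in the table.

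The neuronal ELAVL genes all had lower levels in OC2-OE cells, by unequal amounts. ELAVL4 (HuD, ENSG00000162374.18, chr1:50024029-50203772, plus strand), a stabilizer of mRNAs of the neuronal programme, was at 34.3, 32.7 and 32.1 CPM in control replicates 1 to 3 and at 12.6, 13 and 14.1 CPM in the OC2-OE replicates. The mean fell from 33.0 ± 1.14 to 13.2 ± 0.732 CPM (SD, n = 3), to 40.0% of control. The log2 fold change was -1.32 (SE 0.0712, adjusted p = 1.89e-35 with edgeR), and no OC2-OE library came near a control library. With 1710 read pairs in control and 724 in OC2-OE cells, it was the neuronal ELAVL gene with the most reads.

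ELAVL3 (HuC, ENSG00000196361.10, chr19:11451326-11481046, minus strand), the paralog typical of mature neurons, was lower by a smaller factor. Its levels were 5.19, 5.44 and 4.86 CPM in control and 3.13, 2.94 and 2.80 CPM in OC2-OE libraries. This was a log2 fold change of -0.80 (SE 0.161, adjusted p = 4.82e-06 with edgeR), which left 57.4% of control. The groups were apart, although the counts were few (51 to 97 per library). Of its 4761 exonic bases, 256 are also exon of another gene on that strand, which had 0 counts in these libraries.

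ELAVL2 (HuB, ENSG00000107105.15, chr9:23690104-23826337, minus strand) changed least of the 3 neuronal paralogs. Its control values were 11.7, 8.67 and 9.16 CPM and its OC2-OE values 6.73, 7.33 and 8.40 CPM. The groups did not overlap, but the lowest control library and the highest OC2-OE library lay close together, and control replicate 1 stood above the other two. On the log2 scale it changed by -0.41 (SE 0.113, adjusted p = 0.000915 with edgeR), or 75.5% of control. Without control replicate 1 it was -0.26 with an adjusted p of 0.0619, and the call was lost in 10 of 15 alternative fits. Over the 15 fits the adjusted p ranged from 0.000304 to 0.0619.

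Since the 3 genes fell unequally, their balance differed between the groups. FPKM (fragments scaled to exon length and library size) allows levels to be set roughly side by side between genes. The length used was that of all annotated exons of a gene, not of the transcripts expressed. Shares, ranks and ratios between genes are therefore approximate. ELAVL4 made up 54.9%, 58.0% and 57.8% of the summed FPKM of the 3 genes in control libraries and 43.4%, 43.3% and 43.0% in OC2-OE libraries. ELAVL2 made up 27.5% ± 2.80 in control and 39.7% ± 2.11 in OC2-OE cells (SD, n = 3). Both shares separated the groups fully, with p = 0.1 in a two-sided exact permutation test, the smallest p that 3 against 3 libraries allow. The ELAVL3 share was 15.6% ± 1.21 and 17% ± 1.92, with p = 0.4 in that exact test. The summed FPKM of the 3 genes was 6.95 ± 0.455 in control and 3.66 ± 0.218 in OC2-OE cells.

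The broadly expressed ELAVL1 (HuR), the family member found in most cell types, was lower as well, at 182 ± 10.3 CPM in control and 138 ± 2.25 CPM in OC2-OE cells (SD, n = 3). Its log2 fold change was -0.40 (SE 0.0315, adjusted p = 3.94e-22 with edgeR). The neuronal genes supplied 21.0% ± 1.6 of the summed FPKM of all 4 ELAVL genes in control and 15.6% ± 0.568 in OC2-OE cells, a separation with p = 0.1 in the exact permutation test.

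NOVA1 (ENSG00000139910.20, chr14:26443090-26598033, minus strand), a splicing regulator of synaptic transcripts, was at 12.5, 12.5 and 11.8 CPM in control libraries and at 5.06, 6.46 and 4.45 CPM in OC2-OE libraries. The mean fell from 12.3 ± 0.422 to 5.32 ± 1.03 CPM (SD, n = 3), to 43.1% of control. The log2 fold change was -1.21 (SE 0.115, adjusted p = 5.23e-18 with edgeR). Every control library was well above every OC2-OE library, and OC2-OE replicate 2 was the highest of its group.

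NOVA2 (ENSG00000104967.8, chr19:45933734-45974044, minus strand), the paralog that prevails in the cortex, was hardly detected. Control replicates 1 to 3 held 2, 3 and 3 read pairs of it, and OC2-OE replicates 1 to 3 held 1, 1 and 0. The ratio of OC2-OE to control counts, scaled to depth, was 0.236 with a 95% counting interval of 0.0244 to 1.18, which includes no change. NOVA1 therefore carried almost all NOVA reads in both groups, and a change of NOVA2 was not detectable at this depth.

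CELF3 (ENSG00000159409.15, chr1:151700058-151716803, minus strand), a nervous-system member of the CELF family of splicing and translation regulators, was the most abundant gene of the set and had the largest fall. Its level was 169, 173 and 165 CPM in control libraries and 49.4, 49.3 and 49.9 CPM in OC2-OE libraries. The groups were far apart, with little spread within either. The log2 fold change was -1.77 (SE 0.0373, adjusted p = 7.45e-76 with edgeR), to 29.3% of control, and rested on 8727 and 2710 read pairs. Of the 17307 tested genes, 637 had a lower log2 fold change.

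CELF4 (ENSG00000101489.20, chr18:37243040-37565827, minus strand), its paralog with roles in excitatory neurons, had the opposite direction. It was at 6.85, 6.87 and 7.56 CPM in control libraries and at 10.9, 11.4 and 11.6 CPM in OC2-OE libraries. All OC2-OE libraries were above all control libraries. It rose 1.59-fold, a log2 fold change of 0.67 (SE 0.107, adjusted p = 1.75e-08 with edgeR).

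Opposite changes moved the ratio of the CELF paralogs. Per unit of exon length, CELF3 exceeded CELF4 by 23.0-fold, 23.5-fold and 20.3-fold in control libraries and by 4.25-fold, 4.03-fold and 4.03-fold in OC2-OE libraries. On the log2 scale the ratio was 4.48 ± 0.11 in control and 2.04 ± 0.04 in OC2-OE cells (SD, n = 3), with p = 0.1 in the exact permutation test. CELF3 thus stayed the higher of the pair in every library, at a smaller margin in OC2-OE cells. The broadly expressed CELF1 was at 142 ± 7.64 and 140 ± 3.02 CPM, a log2 fold change of -0.02 with a 95% interval of -0.08 to 0.05 (adjusted p = 0.621 with edgeR).

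The remaining CELF genes were near or at the limit of detection. CELF2 had 8 read pairs in control and 8 in OC2-OE cells, a ratio scaled to depth of 0.945 (95% counting interval 0.309 to 2.89). CELF5 had 15 and 8, a ratio of 0.504 (0.185 to 1.27), and both intervals include no change. CELF6 had 0 in all 6 libraries. A count of 0 over all libraries allows up to 0.0282 CPM (3 counts, for counting error only).

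**Figure D2:**
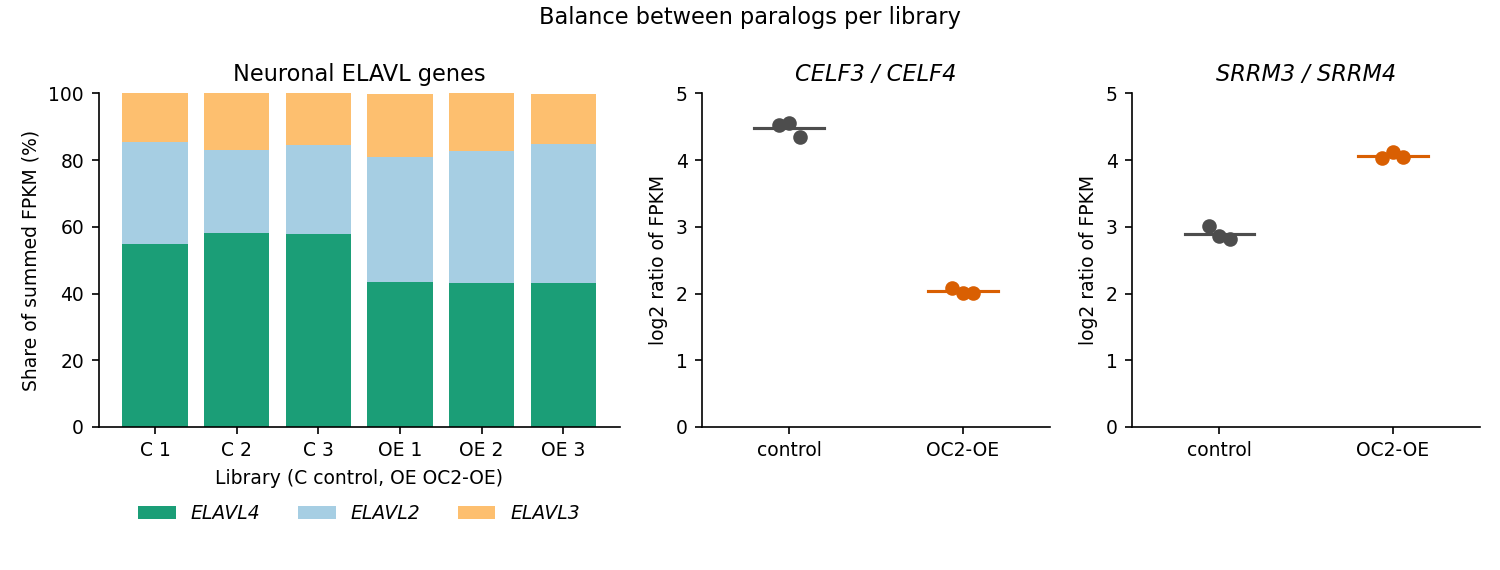
Left, share (%) of ELAVL2, ELAVL3 and ELAVL4 in their summed FPKM in each library (C control, OE OC2-OE). The other panels show the log2 ratio of FPKM per library for the paralog pairs CELF3/CELF4 and SRRM3/SRRM4. The ELAVL4 share is 56.9% on average in control and 43.2% in OC2-OE libraries. The CELF ratio is lower and the SRRM ratio higher in OC2-OE cells.

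RBFOX2 (ENSG00000100320.24, chr22:35738736-36028824, minus strand), the widely expressed member of a family of exon regulators, rose modestly. It was at 44.6, 42.7 and 46.5 CPM in control libraries and at 55.9, 56.1 and 53.7 CPM in OC2-OE libraries, with no overlap. The rise was 1.24-fold, a log2 fold change of 0.31 (SE 0.0487, adjusted p = 1.17e-08 with edgeR). The neuron-restricted RBFOX1 had 20 read pairs in control and 5 in OC2-OE cells, a ratio scaled to depth of 0.236 (95% counting interval 0.0693 to 0.648). Control replicate 1 held 12 of the 20 control reads, and without it the ratio was 0.377 (0.097 to 1.31), which includes no change, while without OC2-OE replicate 1 it was 0.145 (0.0165 to 0.598). RBFOX3 (NeuN), a marker of mature neurons, had 0 in every library. RBFOX2 was therefore the RBFOX gene with nearly all the reads in both groups.

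The SRRM genes, activators of neural microexons, also moved in opposite directions. SRRM3 (ENSG00000177679.16, chr7:76201896-76287288, plus strand) was at 19.5, 19.1 and 21.9 CPM in control libraries and at 28.8, 28.2 and 27.6 CPM in OC2-OE libraries. Its log2 fold change was 0.49 (SE 0.0676, adjusted p = 2.12e-10 with edgeR), a 1.40-fold rise without overlap of the groups.

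SRRM4 (nSR100, ENSG00000139767.10, chr12:118981541-119163051, plus strand), which in neural cells also splices REST into a truncated form, was low in both groups. It was at 4.28, 4.66 and 5.53 CPM in control libraries and at 3.13, 2.89 and 2.96 CPM in OC2-OE libraries. The groups were separate, and the counts behind them were 248 and 164. The log2 fold change was -0.68 (SE 0.164, adjusted p = 0.000128 with edgeR), or 62.4% of control. The call was lost in 4 of 15 alternative fits: without control replicate 3 the log2 fold change was -0.58 (adjusted p = 0.00406), without OC2-OE replicate 2 the adjusted p was 0.00105, without OC2-OE replicate 3 it was 0.00135, and with DESeq2 it was 0.00253.

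SRRM3 exceeded SRRM4 by 8.09-fold, 7.27-fold and 7.03-fold in FPKM in control replicates 1 to 3 and by 16.4-fold, 17.4-fold and 16.5-fold in OC2-OE replicates 1 to 3. The log2 ratio was 2.90 ± 0.11 and 4.07 ± 0.05 (SD, n = 3), with p = 0.1 in the exact permutation test. SRRM3 was the higher of the pair in every library, at a larger margin in OC2-OE cells. The general splicing coactivators of this family, SRRM1 and SRRM2, rose by 0.18 (SE 0.0323) and 0.41 (SE 0.0213) on the log2 scale.

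**Figure D3:**
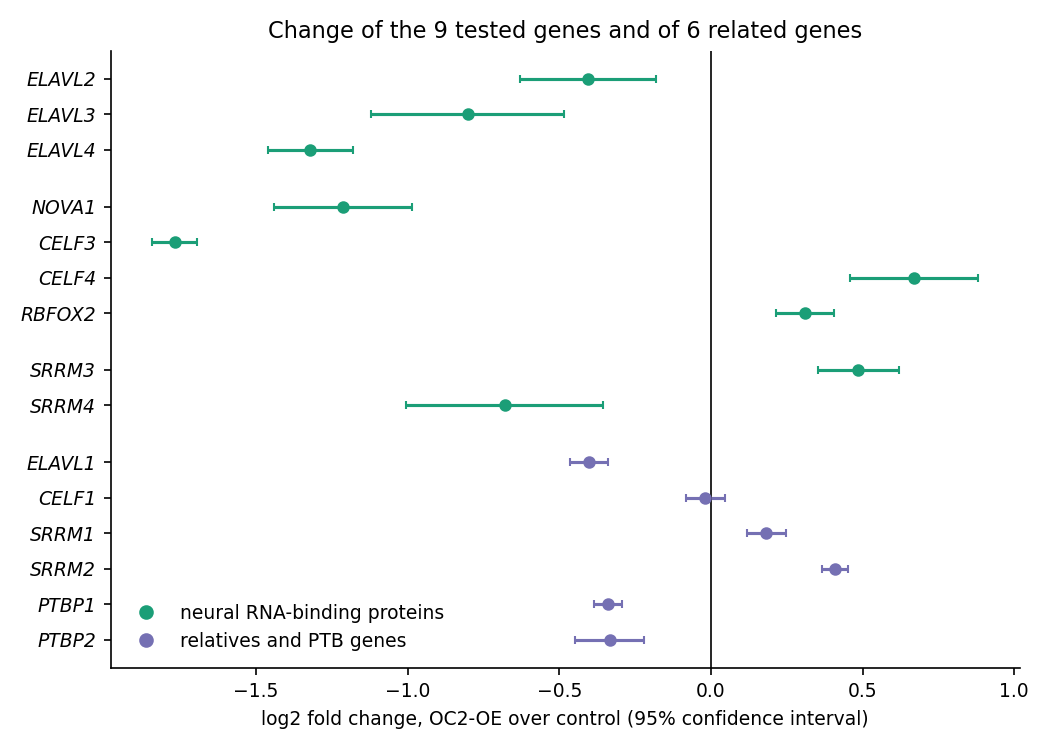
log2 fold change of OC2-OE over control for the 9 tested genes and 6 related genes, with 95% confidence intervals from edgeR. CELF3 lies farthest to the left at -1.77 and CELF4 farthest to the right at 0.67, while the interval of CELF1 includes 0.

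Ordered by level per length in control cells, the mean FPKM was 24.9 for CELF3, 3.95 for ELAVL4, 3.61 for RBFOX2, 2.93 for SRRM3, 1.92 for ELAVL2, 1.19 for NOVA1, 1.12 for CELF4, 1.08 for ELAVL3, 0.395 for SRRM4 and 0.0171 for NOVA2. The library ranges of NOVA1 and CELF4, and of CELF4 and ELAVL3, overlapped, and the other neighbours did not. In OC2-OE cells the order was CELF3 (7.31), RBFOX2 (4.47), SRRM3 (4.10), CELF4 (1.78), ELAVL4 (1.58), ELAVL2 (1.46), ELAVL3 (0.621), NOVA1 (0.515), SRRM4 (0.245) and NOVA2 (0.00399). There the ranges of ELAVL4 and ELAVL2, and of ELAVL3 and NOVA1, overlapped. ELAVL4 moved from the second to the fifth place and CELF4 from the seventh to the fourth.

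CELF3 dominated the sum of the 10 genes. It supplied 60.6% ± 1.24 of their summed FPKM in control and 33.1% ± 0.254 in OC2-OE cells (SD, n = 3), while the sum was 41.1 ± 0.388 and 22.1 ± 0.127 FPKM. Of the genes that passed the test, CELF3, ELAVL4 and NOVA1 changed by at least 2-fold, all of them downward, beside 9.04% of all tested genes that fell this far. The control and OC2-OE libraries did not overlap for any of the 9 tested genes, and they did not overlap for 73.2% of all tested genes either. Among the 9 genes the log2 fold changes had a median of -0.68, against 0.01 for all tested genes.

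ONECUT2 itself was at 24.6 ± 0.332 CPM in control and 3944 ± 70.3 CPM in OC2-OE cells (SD, n = 3), as the labels say. The NE markers CHGA, CHGB, SYP, INSM1, NCAM1, UCHL1 and NEUROD1 were expressed in both groups. Their sum was 2369 to 2402 CPM in control and 2113 to 2132 CPM in OC2-OE libraries. UCHL1 gave the largest part of the sum and rose from 1077 ± 16.9 to 1430 ± 8.93 CPM (SD, n = 3). The sum therefore does not show the size of the fall in the 5 markers that were lower. All 7 markers passed the test, 5 as lower and 2 as higher, beside 56.5% of all tested genes (28.7% lower and 27.8% higher). Among the 7 were NEUROD1 (log2 fold change -2.32), NCAM1 (-2.0), INSM1 (-1.93) and CHGA (1.06). Of 11 markers of other cell types, CD3E had 0 counts in all libraries, 5 had at most 10 counts in all, and their sum was 31.4 to 35.9 CPM in control and 36.3 to 40.3 CPM in OC2-OE libraries. Of the 4 that could be tested, 3 passed with edgeR (75%, beside 56.5% of all tested genes). GFAP, an astrocyte marker, fell from 5.52 to 1.38 CPM (log2 fold change -1.99). CD14, a monocyte marker, and COL1A1, a fibroblast collagen, rose by 0.71 and 0.37 on the log2 scale. In bulk RNA, fewer cells that express a gene and less RNA per cell cannot be told apart, and the part of these marker changes in the results for the RNA-binding proteins was not tested.

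REST, the repressor of neuronal genes in non-neural cells, was higher in OC2-OE cells. It was at 9.31, 11.1 and 9.35 CPM in control libraries and at 15.9, 16.9 and 16.1 CPM in OC2-OE libraries, a log2 fold change of 0.72 (SE 0.0909, adjusted p = 5.77e-12 with edgeR). All OC2-OE libraries were above all control libraries, whereas SRRM4 was lower in all of them. Whether the REST transcripts were the full-length or the neural form is not given by counts per gene.

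PTBP1, which blocks neural exons in non-neural cells, and PTBP2, its neural paralog, both fell. PTBP1 went from 468 ± 13.7 to 370 ± 1.56 CPM (log2 fold change -0.34) and PTBP2 from 37.4 ± 1.05 to 29.6 ± 0.607 CPM (-0.33), with SD and n = 3 for each. The log2 ratio of PTBP1 to PTBP2 in FPKM was 4.61 ± 0.01 in control and 4.61 ± 0.03 in OC2-OE cells, a difference of -0.0033 (SE 0.0171) with p = 0.9 in the exact permutation test. Of 8 genes of the PTB family and its partners, 1 rose (RAVER2, 0.38) and 4 fell, PTBP3 by 0.41 on the log2 scale. This is 62.5% of the list, beside 56.5% of all tested genes.

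The 10 genes were then set beside other RNA-binding and splicing genes, in lists chosen with earlier results of these data known. Over 7 such lists, 101 of 109 genes could be tested and 75 passed (74.3%, beside 56.5% of all tested genes), 22 as higher and 53 as lower. Of the genes that passed, 7 (6.93% of those tested) changed by at least 2-fold, beside 17.3% of all tested genes. In the list named for other tissue-restricted splicing regulators, 17 genes were tested, of which 8 rose and 8 fell (94.1%). Not all genes of this list are tissue-restricted or known mainly for splicing. RBMS1 and RBMS2, which bind single-stranded nucleic acid, rose by 1.43 and 1.36 on the log2 scale. KHDRBS2, a neural relative of Sam68, fell from 8.09 ± 0.832 to 3.37 ± 0.532 CPM (SD, n = 3; log2 fold change -1.26), and RBM20, a regulator of titin splicing, had -0.98.

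Among core spliceosome and hnRNP genes, most of those that passed the test fell. Of 24 core spliceosome genes, 19 fell and 1 rose, with a median log2 fold change of -0.30. Over all tested genes, 28.7% fell and 27.8% rose. SNRNP70 of the U1 particle was the gene that rose (0.65), while the Sm proteins SNRPG and SNRPB and the U2 component SF3B3 had -0.65, -0.62 and -0.57. Of 16 hnRNP genes, 10 fell and 2 rose (median -0.17), led by HNRNPA1 and HNRNPR (both -0.48), HNRNPF (-0.43) and HNRNPM (-0.34). SNRPG and HNRNPA1 have near-identical pseudogene copies, and their counts are uncertain to that extent. Sequence shared with other genes was searched for the 10 neural genes only, so other listed counts may be uncertain too. U2AF1, which did not pass, had 345 read pairs in control and 315 in OC2-OE cells. Its partner U2AF2 had 21503 and 19558, and the reason for this gap was not tested.

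Of 14 SR protein genes, 6 fell and 4 rose (71.4%, beside 56.5% of all tested genes), with a median of -0.06. SRSF12 had the largest log2 fold change (2.26) on few reads, 21 in control and 108 in OC2-OE cells. SRSF11 rose by 0.66, while SRSF3 fell by 0.57 and TRA2B by 0.42 on the log2 scale. Of 18 tested regulators of mRNA stability and translation, 4 rose and 5 fell, a share of 50% beside 56.5% of all tested genes. The AU-rich element binder ZFP36, which speeds mRNA decay, rose from 22.4 ± 1.83 to 72.7 ± 1.63 CPM (SD, n = 3; log2 fold change 1.69). MSI1, a marker of neural progenitors, had 23 and 67 read pairs (1.45), LIN28A, a blocker of let-7 maturation, had 78 and 15 (-2.43), and LIN28B had a log2 fold change of -0.77.

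Genes known to carry neural exons and mRNAs known to be bound by neuronal ELAVL proteins were listed as well. Of 24 tested genes with neural exons, 6 rose and 8 fell in total level, a share of 58.3% beside 56.5% of all tested genes. KCNMA1, a potassium channel, had a log2 fold change of -1.54, while EIF4G3, a translation initiation factor with a neural microexon, ANK3, the ankyrin of the axon initial segment, and AGRN, the organizer of the neuromuscular junction, rose by 1.48, 1.35 and 1.33. Of 6 tested mRNAs bound by neuronal ELAVL proteins, 2 rose and 2 fell (66.7%). BDNF rose by 1.86 on the log2 scale, on 27 and 105 read pairs, and MAPT (tau) by 1.06, while CDKN1A fell by 0.95.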

How the data were processed

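RNA-Seq of DMS53 cells, 3 control and 3 OC2-OE libraries, was analysed. Per the labels and the submitters' processing notes, the authors checked reads with FastQC 0.11.8, aligned them with STAR 2.7.9a and counted read pairs per gene with featureCounts 1.6.0 on the GENCODE 42 annotation (GRCh38). The deposited values are raw counts per gene, beside exonic lengths. Replicates were not pooled, and library totals were 16533284 to 19099337.

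From these counts, genes were filtered with filterByExpr, scaled by TMM and tested with edgeR 4.0.16 (robust quasi-likelihood F-test, R 4.3.3), with Benjamini-Hochberg adjustment over 17307 genes and a threshold of 0.001. CPM and FPKM were computed with TMM-scaled library sizes. Ratios and shares were compared by two-sided exact permutation tests over libraries. Counting intervals (those of count ratios) and floors cover counting error only. Confidence intervals of fold changes are from the edgeR fit. Scripts were tested on simulated counts.

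The members and lists were chosen with earlier results of these data known. Text names all 10 genes, the first 4 called genes by absolute log2 fold change of each list, and fixed relatives, except a listed gene that is not reported here. Alternatives were limma voom (3.58.1), DESeq2 (1.42.0), other scalings, filters, thresholds, a replicate term and leaving out each library. The replicate numbers were not shown to pair samples. Promoter windows came from RefSeq tables.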

Additional observations from a re-analysis of the deposited data

How the results depend on the processing

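No direction reversed for the 9 tested genes in any of 135 alternative fits, and 14 fits lost the call, all of ELAVL2 or SRRM4. The other 7 genes kept their call throughout. With a 2-fold minimum (1 on the log2 scale) added to the threshold, 0 of the 10 genes were higher and 3 lower, 5 of the listed RNA-binding genes higher and 2 lower, and 1435 genes higher and 1564 lower over all tested genes. When 1 library at a time was dropped, 3 of the 10 genes were higher and 4 to 6 lower, with 4425 to 4561 higher and 4514 to 4779 lower over all tested genes. Scaling by library size alone moved the median of all genes to 0.06.

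The samples share replicate numbers only: deviations of same-numbered libraries correlated at -0.00435, 0.0186 and 0.0149, and not every library correlated best with its own number. With a replicate block, 3 of the 10 genes were higher and 5 lower (ELAVL2 had an adjusted p of 0.00151), against 4734 higher and 4908 lower over all genes. The log2 ratio of NOVA1 to NOVA2 was not run, since NOVA2 had 0 counts in 1 library. Depth limits NOVA2, RBFOX1, CELF2 and CELF5, for which only counting intervals are given. Leaving out libraries for the ratios of NOVA2 and RBFOX1 was chosen after seeing the data, and gave 0.173 to 0.354 and 0.145 to 0.377.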
